A study of Mus musculus with 14 samples.

Results

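Glut_19 is a cluster of glutamatergic neurons from the mouse brain whose genes were those of the thalamus, and it is called thalamus-like below. Its members are the nuclei that carry the label Glut_19 in the deposited annotation of cell types, 554 nuclei among the 14675 of the brain CKO and 16649 of the brain control library, in a series of 109000 nuclei. The CKO library gave 336 of them and the control library 218. The label came from clustering on gene expression, so a difference between Glut_19 and other clusters is a description and was not tested.

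The study asked what the loss of *Tgfbr1*, the type I receptor for TGF-beta, in endothelial cells (ECs) does to vessels of the retina and brain. For the brain, vascular fragments were pelleted through Ficoll, fragments from a pair of brains were pooled for each library, and nuclei were profiled by single-nucleus RNA sequencing (snRNAseq) with the PIPseq v4.0 PLUS kit. The kit reads 3′ ends and gives every captured RNA molecule its own barcode (a unique molecular identifier, UMI), so PCR copies count once. The preparation also held many nuclei of neurons and glia, and the samples are labelled as brain endothelial cells although Glut_19 is a neuron cluster.

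The CKO mice were *Cdh5CreER;Tgfbr1 CKO/-*, with a tamoxifen-dependent Cre under the EC promoter of *Cdh5*, a floxed *Tgfbr1* allele and a null allele. They received 4-hydroxytamoxifen between postnatal days 3 and 5, at a dose not given in the sources used here. The control library is labelled wild type; controls of the study were typically *Cdh5CreER;Tgfbr1 CKO/+*, and whether these brains carried those alleles or received the drug is not given. The methods place the brains at postnatal day 14, whereas the series text speaks of young adults. Strain background is not given either. Since the Cre acts in ECs, the neurons of CKO mice carry the null allele and an unrecombined floxed allele, so that a copy of their own receptor gene differs from controls, as do the vessels around them.

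As background, the thalamus is the relay between sense organs, subcortical centers and the cerebral cortex. Its principal neurons use glutamate, load it into vesicles with VGLUT2 (encoded by *Slc17a6*) far more than with the cortical VGLUT1 (*Slc17a7*), and send axons to the cortex. Relay neurons keep on the transcription factors TCF7L2 and LEF1, which mark the developing thalamus and mediate Wnt signals, and many express the axonal adhesion protein netrin-G1 (*Ntng1*) and protein kinase C delta (*Prkcd*).

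The brain libraries held 14675 nuclei with 31033373 UMIs (CKO) and 16649 nuclei with 49798325 UMIs (control), with median depths of 1395 and 1541 UMIs per nucleus. Each genotype has only 1 library and thus no replicate, so every comparison of CKO with control compares 2 libraries, and no test was made. Intervals are 95% intervals (exact binomial for shares, exact Poisson for levels, exact conditional binomial for ratios) and cover counting error only. The libraries shared 2 barcodes, none of them in Glut_19.

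The libraries also differed in sex-linked transcripts within Glut_19. *Xist*, the RNA that silences an X chromosome in female cells, had a UMI in 2 of 336 CKO nuclei (0.595%, 0.0722 to 2.13) and in 154 of 218 control nuclei (70.6%, 64.1 to 76.6). At least 1 of 4 Y chromosome genes (*Ddx3y*, *Uty*, *Kdm5d*, *Eif2s3y*) had a UMI in 212 CKO nuclei (63.1%, 57.7 to 68.3) and in 63 control nuclei (28.9%, 23.0 to 35.4). The control library thus held nuclei with either kind of transcript, 120 with *Xist* only and 29 with Y genes only, while 34 had both and 35 neither. In the CKO library only 1 nucleus had both. These shares are unthinned, and the control nuclei were the deeper ones. Genotype and the sex-linked makeup of the pools cannot be told apart here.

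Glut_19 took a larger share of the CKO library. It made up 2.29% (2.05 to 2.54) of CKO nuclei and 1.31% (1.14 to 1.49) of control nuclei, a ratio of 1.75 (1.47 to 2.08). Among nuclei labelled as neurons the shares were 4.02% (3.61 to 4.46) and 2.65% (2.31 to 3.02). The clusters most like it also had larger shares in CKO: Glut_1 made up 14.3% of CKO and 9.80% of control nuclei, Glut_14 3.37% and 2.53%, and Glut_0 21.1% and 12.7%. Glut_5 went the other way, at 1.71% and 11.2%. The share of each neuron type in pelleted fragments depends on the preparation, and its part in the difference was not tested.

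Glut_19 nuclei were deep, and deeper in the control library. Median UMIs per nucleus were 2718 (range 352 to 13565) in CKO and 6480.5 (457 to 18834) in control, and median genes were 1361.5 and 2372.5. The control nuclei thus had 2.38 times the median UMIs of the CKO nuclei, the fifth largest such ratio among 21 clusters; in 19 of the clusters the control median was the larger. Thinned to 1000 UMIs each, the 262 CKO and 198 control nuclei deep enough for it had nearly equal medians of 643 and 632 genes, and 74 CKO and 20 control nuclei fell below that depth. Comparisons of the share of nuclei with a UMI between Glut_19 and other cells are therefore given after thinning, beside the unthinned share.

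The transmitter genes placed Glut_19 among neurons that use VGLUT2. *Slc17a6* was at 183 CPM (158 to 212) in CKO, where CPM is the gene's UMIs over all UMIs of the cluster in that library, scaled to 1e+06, and 197 CPM (174 to 222) in control, 9.29-fold and 8.70-fold over the other brain nuclei of the same library pooled. After thinning it had a UMI in 15.3% and 19.7% of Glut_19 nuclei (36.6% and 62.4% unthinned), against 0.0529% and 0.0680% of ECs, whose median depths were 1491 and 1347 UMIs, and 3.09% and 3.53% of the other neurons (1817 and 2314 UMIs). *Slc17a6* was also at 93.8 and 91.9 CPM in Glut_1 and at 202 and 158 CPM in Glut_20. In Glut_19 *Slc17a7* went the other way, with 6 UMIs in CKO and 44 in control, and lay below the rest of the brain in both libraries. *Slc17a8*, which encodes the third vesicular glutamate transporter, had 5 and 4 UMIs.

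Genes of inhibitory and other transmitters were low. *Gad1* and *Gad2*, which encode the enzymes that make GABA, had 8 and 22 UMIs in CKO and 11 and 7 in control. The vesicular GABA transporter gene *Slc32a1* had 1 UMI in CKO and 0 in control. *Gad1* or *Gad2* was seen in 21 CKO and 14 control nuclei, of which 5 and 7 also had *Slc17a6*. Of the cholinergic and monoaminergic markers none was raised, and *Chat*, which makes acetylcholine, had 0 UMIs in both libraries (0 of 336 and 0 of 218 nuclei, which, at 3 nuclei of each total, allow shares of nuclei with a UMI of up to 0.893% and 1.38%). The neuronal markers were present, for instance *Snap25* at 800.3 and 894 CPM and *Syt1* at 4223 and 4273 CPM, which encode proteins of vesicle release.

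The regional genes pointed to the thalamus. A marker counted as raised where its fold over the other brain nuclei was at least 2 and at least 5% of Glut_19 nuclei had a UMI, both in each library. Of 8 thalamic markers 5 were raised (*Ntng1*, *Tcf7l2*, *Lef1*, *Prkcd* and *Lhx9*), the most of any of 31 regional lists. Over all genes in the matrix, 387 (1.46%) met the same rule.

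*Ntng1* (GRCm39, chr3:109687356-110051327, minus strand) was at 4340.4 CPM (4212 to 4471) in CKO and 4299 CPM (4191 to 4409) in control, 16.3-fold and 20.4-fold over the rest. Nearly every Glut_19 nucleus carried it: 96.6% and 97.0% after thinning (99.4% and 100% unthinned), against 22.0% and 18.9% of the other neurons and 0.106% and 0.204% of ECs. *Tcf7l2* (chr19:55730188-55922091, plus strand) was at 1021 and 839 CPM, 6.89-fold and 4.66-fold over the rest. *Lef1* (chr3:130903919-131018005, plus strand) was at 644 and 626 CPM, 3.01-fold and 4.18-fold over the rest. Other cells also use these Wnt-responsive factors. *Tcf7l2* was at 1804 and 1509.9 CPM in oligodendrocytes and 710.2 and 631 CPM in astrocytes, and it had a UMI in 15.3% and 20.9% of thinned ECs, against 64.1% and 55.6% of thinned Glut_19 nuclei (87.8% and 92.7% unthinned) and 3.35% and 3.64% of the other neurons. *Lef1* had a UMI in 54.1% and 53.8% of thinned ECs, against 40.8% and 47.5% of thinned Glut_19 nuclei (62.8% and 76.6% unthinned) and 0.479% and 0.673% of the other neurons. The cluster CP_8 had *Lef1* at 516 and 476 CPM, and vascular smooth muscle cells had it at 375 and 306 CPM.

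*Prkcd* (chr14:30317307-30349238, minus strand) was at 136 and 159 CPM, 14.4-fold and 13.9-fold over the rest. It had a UMI in 10.7% and 12.6% of thinned nuclei (20.5% and 39.9% unthinned), a share that few UMIs per nucleus also limit, against 0.319% and 0.400% of the other neurons. Other cells shared *Prkcd*: astrocytes had 93.0 and 126 CPM, and GABA_22 0 UMIs in CKO and 131 CPM in control. *Lhx9* (chr1:138752924-138776341, minus strand), a LIM homeobox factor of the developing diencephalon, was at 66.8 and 38.1 CPM, 16.2-fold and 8.05-fold over the rest, with a UMI in 8.78% and 6.57% of thinned nuclei (17.3% and 17.9% unthinned) and in no thinned EC. Glut_1 shared *Lhx9*, at 22.2 and 23.5 CPM. It also had *Ntng1* at 753 and 629 CPM and *Tcf7l2* at 125 and 129 CPM. Its *Lef1* (17.4 and 18.6 CPM) and *Prkcd* (3.39 and 2.45 CPM) were low. The remaining thalamic markers were not raised by the rule. *Rora*, a nuclear receptor that is widely used in the brain, was at 3800.2 and 3813 CPM but only 2.16-fold and 1.53-fold over the rest. *Gbx2*, a homeobox factor of early thalamic neurons, had folds of 37.4 and 34.8 over a rest near 0, but only 5 and 3 UMIs, in 1.19% and 1.38% of unthinned Glut_19 nuclei. *Zic1* had 8 and 45 UMIs and lay below the rest.

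The thalamic markers met in the same nuclei. They had been chosen for being raised in Glut_19, and *Ntng1* alone was in nearly all nuclei, so the shares describe the cluster and do not test its identity. Of thinned Glut_19 nuclei, 202 of 262 (77.1%, 71.5 to 82.0) in CKO and 160 of 198 (80.8%, 74.6 to 86.0) in control had UMIs of at least 2 of the 5 raised markers. The same held for 1.95% and 2.17% of the other neurons and for 9.95% and 12.9% of ECs. The other neurons were pooled, so these shares do not show Glut_1 on its own. At least 3 of the 5 were seen in 37.8% and 35.9% of Glut_19 nuclei, 0.106% and 0.273% of other neurons and 0.159% and 0.0680% of ECs.

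Other regional lists were poorer in raised genes. The list for unipolar brush cells of the cerebellum came second with 3 of 8, among them *Plcb4*, a phospholipase C gene (722 and 797 CPM, 2.67-fold and 2.73-fold). The transcription factors of that list stayed near 0, with 0 and 2 UMIs of *Eomes*, 0 and 0 of *Lmx1a* and 2 and 1 of *Otx2*. The list for interneurons of the caudal ganglionic eminence had 2 raised genes, *Adarb2* (3187 CPM in each library, 4.91-fold and 4.96-fold) and *Prox1* (189 and 167 CPM, 9.80-fold and 5.92-fold), and 0 or few UMIs of *Vip*, *Sncg* and *Htr3a*. The raised genes of 8 further lists, 1 in each, were *Rorb*, *Slco2a1*, *Foxp2*, *Prox1*, *Nxph1* and *Lhx9*, some of them in several lists. None of the genes of 20 lists was raised, among them those for hindbrain, hypothalamus, habenula, striatum and the pyramidal cells of the hippocampus.

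The genes with the largest folds over the other brain nuclei, among those with a UMI in at least 25% of Glut_19 nuclei in each library, were led by *Synpo2*, which encodes an actin-binding protein. *Synpo2* was at 677 CPM (627 to 730) in CKO and 704 CPM (661 to 749) in control, 27.7-fold and 22.0-fold over the rest, and after thinning had a UMI in 42.7% and 48.0% of Glut_19 nuclei (73.5% and 85.8% unthinned) against 0.993% and 0.692% of the other neurons. *Ntng1* ranked second. *Vav3*, a guanine nucleotide exchange factor gene, followed at 989.7 CPM in CKO and 1152 CPM in control (15.6-fold and 16.3-fold). Glut_21 had *Vav3* at 417 and 448 CPM. In control, GABA_22 had it at 727 CPM and microglia at 751 CPM (1 UMI each in CKO). *Ptpn3*, a tyrosine phosphatase, was at 570.1 and 538 CPM (13.7-fold and 12.3-fold). *Mctp2*, with calcium-binding C2 domains, was at 154 and 224 CPM (10.6-fold and 15.3-fold).

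The other genes among the 15 largest folds lay between 6.05-fold and 9.29-fold over the rest in CKO and between 6.44-fold and 9.11-fold in control. They were *Cpne7* and *Cpne9*, which encode copines that bind membranes on a rise of calcium, *Slc17a6*, the zinc finger gene *Zmat4*, *Nell1* and *Vwc2*, which encode secreted proteins (the latter an inhibitor of BMPs), the citron kinase gene *Cit*, and *Gm41414*, *Ccdc136* and *Shisal1*. Among the 21 clusters Glut_19 held the highest level of these 15 genes in both libraries except for *Cpne7*, *Cpne9*, *Slc17a6* and *Nell1*. *Slc17a6* was highest in Glut_20 in CKO and in Glut_19 in control.

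**Figure D1:**
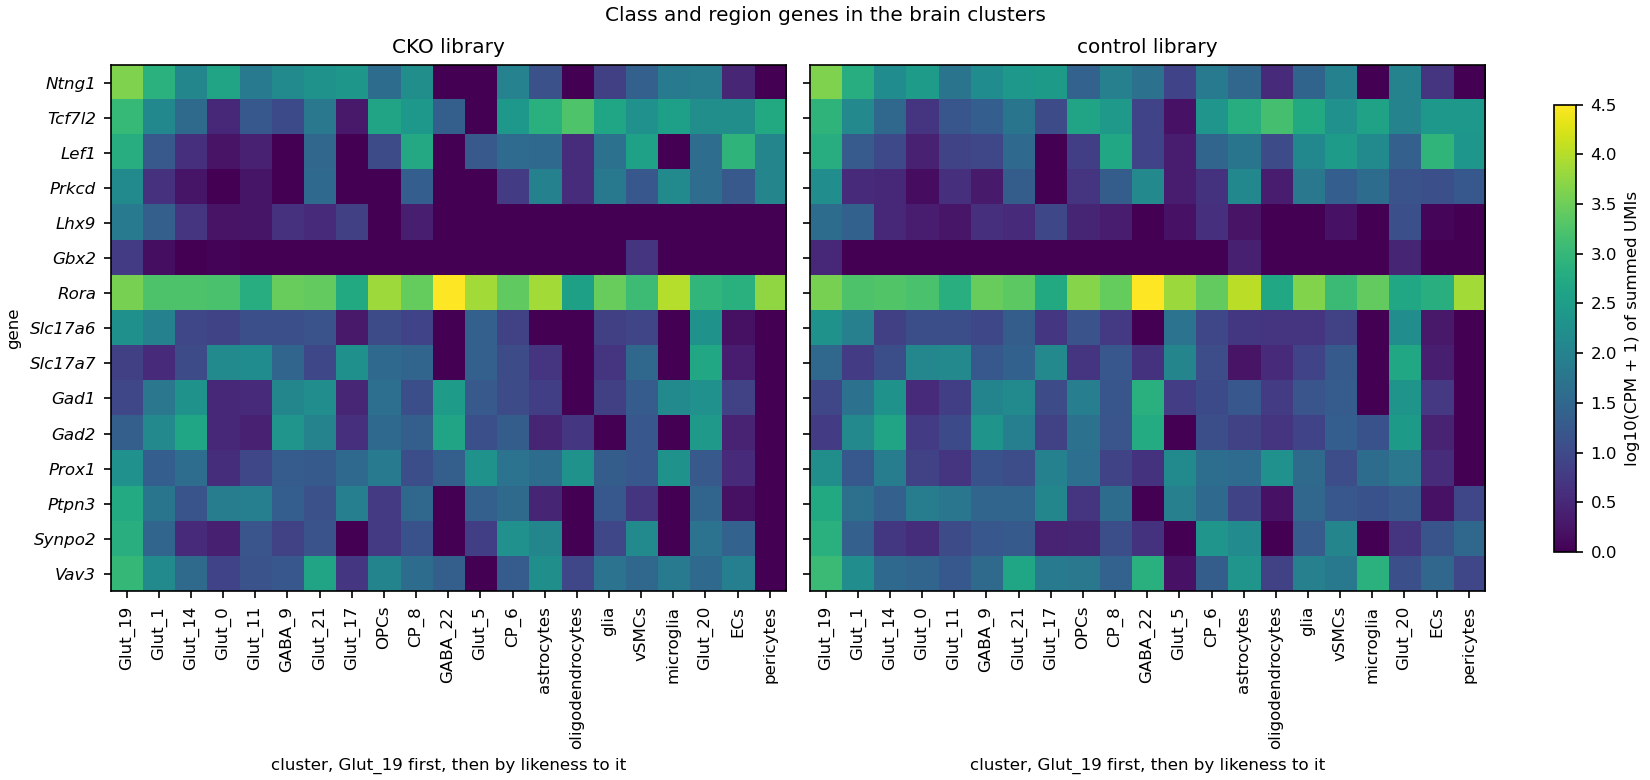
Level of each gene (rows, log10 of CPM plus 1 of UMIs summed over a cluster) in the 21 brain clusters (columns, Glut_19 first and then by likeness to it) in the CKO and control libraries. The raised thalamic markers *Ntng1*, *Tcf7l2*, *Lef1*, *Prkcd* and *Lhx9* and the leading genes *Synpo2*, *Vav3* and *Ptpn3* meet in Glut_19 in both libraries. It shares *Lef1* with ECs, the cluster CP_8 and vascular smooth muscle cells, *Tcf7l2* with oligodendrocytes and astrocytes, and *Prkcd* with astrocytes. Glut_21 also holds *Vav3*, as do GABA_22 and microglia in control. Glut_1 and Glut_0 hold lower levels of *Ntng1*.

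The 2 clusters with the most similar summed profiles were Glut_1 and Glut_14. Despite its label, Glut_14 had *Gad1* at 198 and 200 CPM and *Gad2* at 441 and 431 CPM. Its *Slc17a6* was at 8.00 and 6.04 CPM, so folds over it also compare cells with different transmitter genes. Across all genes of the matrix the Pearson correlation of log2(CPM + 10) with Glut_19 was 0.961 in CKO and 0.963 in control for Glut_1, and 0.939 and 0.947 for Glut_14. Glut_0 came next at 0.923 and 0.938. Genes are not independent of each other, and clusters of a library share its depth and background, so these values only rank the clusters.

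Against Glut_1 the largest folds were those of *Prkch*, the thalamic marker *Lef1* and *Plekhg1*. *Prkch*, the eta form of protein kinase C, was at 228 CPM in Glut_19 and 5.65 CPM in Glut_1 in CKO, and at 267 and 7.94 CPM in control, which are folds of 40.4 (26.7 to 63.7) and 33.7 (25.3 to 45.5). *Lef1* was 37.0-fold (29.2 to 47.5) and 33.6-fold (27.9 to 40.8) higher in Glut_19. *Plekhg1*, an exchange factor gene, was 32.5-fold and 51.7-fold higher. *Synpo2*, *Ildr2*, *Kitl* (the ligand of the receptor KIT), *Ptpn3*, *Clmn*, *Prox1* and *Amotl1* completed the 10 largest, at 8.82-fold to 30.9-fold in CKO and 7.44-fold to 30.1-fold in control.

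The 5 smallest folds over Glut_1, among genes with a UMI in at least 25% of the nuclei of Glut_1, were those of *Samd4*, *Nova1*, *Ndst4*, *Traf3* and *Col11a1*. *Nova1*, a neuronal splicing factor gene, was at 44.8 CPM in Glut_19 and 470 CPM in Glut_1 in CKO, and at 46.7 and 399 CPM in control (ratios of 0.0955 and 0.117). *Ndst4*, which encodes a sulfotransferase that modifies heparan sulfate, was at ratios of 0.144 and 0.111. *Col11a1*, a fibrillar collagen gene, was at ratios of 0.0866 and 0.160.

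The 10 largest folds over Glut_14 held 3 of the thalamic markers, *Lef1*, *Ntng1* and *Tcf7l2*. *Synpo2* was at 677 CPM in Glut_19 against 3 UMIs in Glut_14 in CKO, and at 704 CPM against 8 UMIs in control. *Lef1* was 201-fold (78.2 to 741) and 71.3-fold (43.6 to 125) higher in Glut_19, *Ntng1* 38.2-fold (32.3 to 45.5) and 28.0-fold (24.8 to 31.6), and *Tcf7l2* 29.0-fold (21.4 to 40.2) and 27.8-fold (21.2 to 37.1). *Kitl* had 0 UMIs in Glut_14 in CKO, so it was at least 88.1-fold higher there against a floor of 3 UMIs (exact lower limit 71.0), and it was 40.4-fold higher in control. *Prkch*, *Amotl1*, *Vav3*, *Rnf220* and *Ptpn3* were the other genes of the 10 largest folds.

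The genes with the smallest folds over Glut_14 were *Eya4*, *Col19a1*, *Sox6*, *Dlx6os1* and *Erbb4*. *Erbb4*, a neuregulin receptor gene, was at 355 CPM in Glut_19 and 10593 CPM in Glut_14 in CKO, and at 258 and 10307 CPM in control. *Sox6*, a transcription factor gene of cortical interneurons, was at 20.9 and 836 CPM in CKO and 23.0 and 912 CPM in control. *Dlx6os1*, a noncoding RNA from the locus of the interneuron factor *Dlx6*, was at 7.97 and 250.3 CPM in CKO and 0.718 and 333 CPM in control. *Eya4* had 4 UMIs in CKO and 0 in control in Glut_19, against 230.3 and 217 CPM in Glut_14, and *Col19a1* was at ratios of 0.0167 and 0.0249.

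The Glut_19 nuclei were not uniform. Leiden clustering of the 554 nuclei gave 8 subgroups, each with nuclei of both libraries, with 151, 122, 89, 88, 39, 30, 26 and 9 nuclei. Subgroup 1 made up 31.2% (26.3 to 36.5) of CKO and 21.1% (15.9 to 27.1) of control Glut_19 nuclei, subgroup 2 21.1% and 23.4%, and subgroup 3 13.1% (9.68 to 17.2) and 20.6% (15.5 to 26.6). The clustering used the genes that describe the subgroups, so the folds below, each over the other Glut_19 nuclei of the same library, are descriptions. None of the subgroups was given a name.

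Subgroups 1, 2 and 4 all carried *Ntng1*, *Tcf7l2* and *Lef1* and differed in *Prkcd*, *Lhx9* and their leading genes. Subgroup 1 led with *Tll1*, a metalloprotease gene (6.77-fold in CKO and 5.86-fold in control), *Thsd7b* (3.31-fold and 4.09-fold), the calcium-binding protein gene *Necab1* (3.27-fold and 3.40-fold), the mu opioid receptor gene *Oprm1* (2.75-fold and 3.78-fold) and *Nxph1*, a ligand of neurexins (2.55-fold and 2.82-fold). Subgroup 2 led with *Il1rap*, a co-receptor of interleukin 1 that also acts in synapse adhesion (3.52-fold and 2.94-fold), *Shisa6*, an AMPA receptor partner (3.73-fold and 2.73-fold), and *Zfp804a* (3.03-fold and 2.69-fold). It also had the highest *Prkcd* level of the 8, at 397 and 291 CPM against 62.4 and 85.9 CPM in subgroup 1. Subgroup 4 led with *Iqcj* (3.45-fold and 3.24-fold), the neighboring gene *Schip1* (2.44-fold and 2.71-fold), *Zfp804b* (2.18-fold and 3.18-fold) and the adhesion gene *Opcml* (2.06-fold and 2.59-fold). The gene *Iqschfp* overlaps both *Iqcj* and *Schip1* on the same strand, so their UMIs cannot be told apart for certain.

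Subgroup 3 carried genes of other cell types beside the thalamic ones. It led with *Zeb2* (19.9-fold and 22.3-fold), *Zbtb20* (9.72-fold and 10.3-fold), *Meis2* (16.5-fold and 7.52-fold), *Tcf4* (11.1-fold and 7.12-fold) and *Nfib* (13.5-fold and 6.61-fold), all transcription factor genes. *Ptprk*, a receptor phosphatase, was also among its leading genes (48.7-fold, 15.4 to 247, and 12.5-fold, 7.41 to 22.2). Raised over the other Glut_19 nuclei were the GABAergic markers *Gad1* and *Gad2* and 6 of 9 markers of cerebellar granule cells (*Gabra6*, *Fat2*, *Neurod1*, *Zic1*, *Pax6* and *Etv1*). So were 3 of 8 pallial, 2 of 8 astrocyte and 3 of 8 oligodendrocyte markers. Further lists had raised genes too, such as those for the claustrum (4 of 6) and for olfactory bulb granule cells (3 of 5). The share of all genes raised by this rule in subgroup 3 was not taken, so these counts have no background beside them. The median depths of subgroup 3, 4131.5 and 7734 UMIs, exceeded those of the cluster as a whole. Its *Ntng1* level, 2606 and 3092 CPM, was below those of subgroups 1, 2, 4, 5, 6 and 7. In the control library, 14 of its 45 nuclei (31.1%) had UMIs of both *Xist* and a Y gene, against 20 of the 173 nuclei of the other subgroups (11.6%), both unthinned. Whether its nuclei mix RNA of several cells was not tested.

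The smaller subgroups 5, 6, 7 and 8 had leading genes of their own. Subgroup 5 (27 CKO and 12 control nuclei) led with *Nmbr*, the neuromedin B receptor gene (7 and 3 UMIs), the long noncoding RNA *Gm32647* (12.2-fold and 12.3-fold) and *Rmst* (6.80-fold and 7.38-fold), a noncoding RNA of neurogenesis, and with *Pcsk5*, a proprotein convertase gene (6.56-fold and 17.4-fold). Its *Foxp2* levels, 1811 and 909 CPM, were above those of the cluster as a whole (611 and 481 CPM), and *Lhx9* was at 337 and 126 CPM. *Lef1* was lower, at 107 and 69.9 CPM, and *Prkcd* had 1 UMI in CKO and 0 in control.

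Subgroup 7 (16 and 10 nuclei) led with *Npsr1*, the receptor gene of neuropeptide S (1276 and 913 CPM, 14.7-fold and 29.5-fold), *Klhl14* (5 and 10 UMIs, 12.3-fold and 18.9-fold), *Rgs6*, a regulator of G protein signals (9.55-fold and 8.05-fold), and the semaphorin co-receptor gene *Nrp2* (6.94-fold and 6.97-fold). *Prox1* was at 741 and 442 CPM there, while *Foxp2* had 1 UMI in each library and *Prkcd* 0 in both. Subgroup 6 (17 and 13 nuclei) led with *Luzp2* (5.28-fold and 5.37-fold), *Csgalnact1*, a gene of chondroitin sulfate synthesis, and *Rxfp1*, the relaxin receptor gene, and had the highest *Lef1* levels, 1352 and 1021 CPM. Subgroup 8 had only 5 and 4 nuclei. It led with *Stk32b* (3 and 6 UMIs), *Slc44a5*, the serotonin receptor gene *Htr2a* (3 and 3 UMIs), *Alk* and the guidance gene *Slit2*. *Ntng1* and *Tcf7l2* had UMIs in all 8 subgroups in both libraries.

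**Figure D2:**
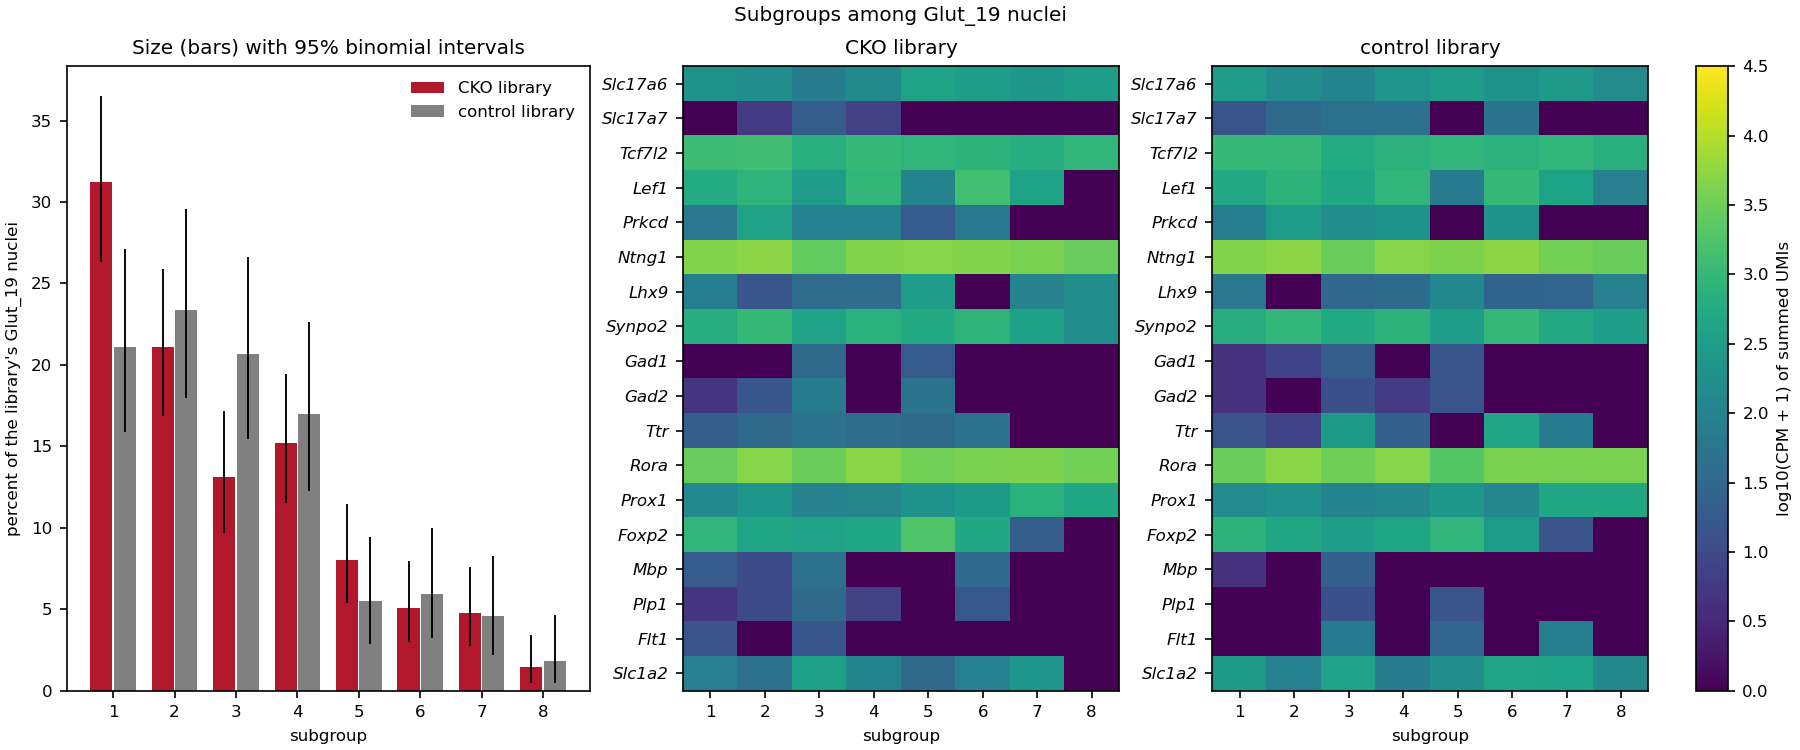
Left, share of each library's Glut_19 nuclei in each of 8 subgroups (bars) with exact binomial 95% intervals (lines). Right, level of marker genes (log10 of CPM plus 1 of summed UMIs) in each subgroup and library, in which *Ntng1* and *Tcf7l2* run through all subgroups while *Prkcd*, *Lhx9*, *Foxp2* and *Prox1* differ between them.

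Markers of non-neuronal cells were low in Glut_19 and differed between the libraries. The 9 endothelial markers summed to 19.9 CPM (12.2 to 30.8) in CKO and 63.9 CPM (51.3 to 78.7) in control, against 11865.5 and 14283 CPM in ECs; 6 of the 9 had 0 UMIs in CKO and none in control, and the most abundant were *Mecom* and *Flt1*. The 8 pericyte markers summed to 1 UMI in CKO (7 genes at 0) and 34 in control (2 at 0, most from *Rgs5*), and the 4 smooth muscle markers to 1 UMI (3 at 0) and 30 (2 at 0, nearly all from *Mylk*). Most of the endothelial and pericyte signal of the control library sat in subgroup 3, which held 77 of its 89 endothelial and 26 of its 34 pericyte UMIs. In the other Glut_19 nuclei endothelial markers were at 13.7 CPM in CKO and 11.5 CPM in control, and pericyte markers at 1.24 and 7.69 CPM. Without the 4 CKO and 6 control nuclei that had at least 3 vascular UMIs, 41 and 87 genes were past a ratio of 2 in the comparison below, of which 33 and 74 were among the 40 and 94 found with all nuclei.

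Astrocyte markers were also higher in control, with 337 CPM (302 to 375) in CKO and 646 CPM (604 to 689) in control and *Slc4a4* as the most abundant gene, against 22927 and 21221 CPM in astrocytes. Choroid plexus markers, mostly *Ttr*, were at 47.8 and 139 CPM. Subgroup 3 held 140 of their 193 control UMIs, and in the other Glut_19 nuclei they were at 41.0 and 50.9 CPM. Oligodendrocyte markers went the other way, at 60.8 CPM (46.5 to 78.1) and 29.4 CPM (21.1 to 40.0). Markers of oligodendrocyte precursors were at 237 and 295 CPM, nearly all from *Tnr*, and *Cspg4* had 0 UMIs in both libraries. Ependymal markers had 3 and 6 UMIs and fibroblast markers 4 and 3.

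For the comparison of genotypes, the targeted gene comes first. *Tgfbr1* (chr4:47353134-47414931, plus strand) had 14 UMIs in 9 CKO nuclei and 4 UMIs in 4 control nuclei of Glut_19, or 13.95 CPM (7.63 to 23.4) and 2.87 CPM (0.783 to 7.36), a ratio of 4.86 (1.53 to 20.3) that rests on few UMIs. It was 2.59 without subgroup 3 and 2.92 with nuclei weighted equally. Without nuclei with at least 3 vascular UMIs it was 5.90, and with only nuclei of at least 1000 UMIs it was 5.05. With only nuclei without an *Xist* UMI, and after thinning, it had no finite value. In the other neurons the ratio was 0.747 (0.579 to 0.957). Neurons are not the cells in which the Cre acts, and 3′ tags outside the deleted part do not show the deletion, so these values check nothing about the allele. *Tgfbr2*, the gene of the partner receptor, had 2 and 1 UMIs.

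Glut_19 profiles of the CKO and control libraries were close. Of 5425 genes with at least 50 UMIs over both libraries, 97.5% lay within a ratio of 2 and the median log2 ratio was 0.01. The CKO level was at least 2 times the control level for 40 genes (0.737%), and the control level at least 2 times the CKO level for 94 genes (1.73%). The interval itself lay past the ratio of 2 for 6 and 18 genes.

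*Timp3*, a secreted inhibitor of metalloproteases, had the largest ratio. It had 59 UMIs in 32 CKO nuclei, at most 9 in a nucleus, and 4 UMIs in 3 control nuclei, or 58.8 and 2.87 CPM, a ratio of 20.5 (7.58 to 77.6). This ratio was 79.0 without nuclei with at least 3 vascular UMIs, 30.4 without subgroup 3 and 9.07 after thinning. Each of these values rests on at most 4 control UMIs, so its size is uncertain. The highest control level of *Timp3* was in vascular smooth muscle cells, at 857 CPM. The other neurons had a ratio of 1.88 (1.27 to 2.78). *Timp3* (GRCm39, chr10:86136236-86185371, plus strand) lies within the neuronal gene *Syn3* on the opposite strand; whether counting used strand is not given, so tags of both cannot be told apart for certain, while *Syn3* itself was at 112 and 126 UMIs, a ratio of 1.23 (0.948 to 1.60).

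*Ckb*, the brain creatine kinase gene, had 43 UMIs in CKO and 13 in control, a ratio of 4.59 (2.42 to 9.30), against 0.988 in the other neurons pooled, although 6 of 6 other neuron clusters with enough UMIs were above 1 (median 3.02). *Ankrd6* had 43 and 15 UMIs (3.98, 2.17 to 7.71), and *Spock2*, a proteoglycan gene of the matrix, 91 and 32 UMIs (3.95, 2.61 to 6.10). *Spock2* had a ratio of 2.86 (2.52 to 3.24) in the other neurons as well, so this difference between the libraries was not limited to Glut_19. *Slit1*, a repellent axon guidance ligand, had 50 and 24 UMIs (2.89, 1.74 to 4.92), *Bex2* 44 and 22 (2.78, 1.63 to 4.86) and *Dnai4* 36 and 18 (2.78, 1.54 to 5.19). The Y-linked *Uty*, *Eif2s3y* and *Kdm5d* took 3 of the 10 largest ratios, at 3.93, 3.26 and 2.97 (1.65, 1.64 and 1.13 with only nuclei without an *Xist* UMI). The alternatives moved several of the CKO-higher ratios in Glut_19 further from 1. *Ckb* was at 9.70 and *Spock2* at 6.37 without subgroup 3. With only nuclei without an *Xist* UMI, *Ankrd6* was at 10.9, *Dnai4* at 9.34 and *Bex2* at 5.71. After thinning, *Spock2* was at 15.1, *Slit1* at 10.6 and *Ankrd6* at 9.07. These thinned ratios rest on few control UMIs (of 32, 24 and 15 before thinning), so their size is uncertain. *Ckb*, *Ankrd6* and *Dnai4* overlap other genes on the opposite strand, as *Rell1* does among the genes below.

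Among genes higher in control, *Xist* stood far apart, with 6 UMIs in CKO and 1464 in control, a ratio of 0.00569 (0.00208 to 0.0124). *Rell1*, a member of the TNF receptor-like family RELT, had 3 and 79 UMIs, a ratio of 0.0527 (0.0106 to 0.160), and 0.104 (0.0626 to 0.163) in the other neurons. *Cemip2*, which encodes a hyaluronidase of the cell surface, had 4 and 60 UMIs (0.0925, 0.0244 to 0.249; other neurons 0.292), and *Snrk*, a kinase gene of the AMPK family, 7 and 68 UMIs (0.143, 0.0553 to 0.311; other neurons 0.219). These genes thus also had low ratios in the other neurons pooled. By cluster, *Rell1* was at a ratio of at most 0.5 in 3 of 3 other neuron clusters with enough UMIs, *Cemip2* in 5 of 8 (but at 1.91 in another) and *Snrk* in 5 of 8. The alternatives moved their Glut_19 ratios both ways. After thinning, *Rell1* was at 0.252, *Cemip2* at 0 and *Snrk* at 0.0756, values that rest on few UMIs. With only nuclei without an *Xist* UMI, *Cemip2* was at 0.148 and *Snrk* at 0.303. Without subgroup 3, *Rell1* was at 0.0209.

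Other genes with low ratios in Glut_19 had higher ratios in the other neurons pooled. *Nek7*, a kinase gene, had 9 and 73 UMIs in Glut_19 (0.171, 0.0752 to 0.343), against a ratio of 0.951 (0.800 to 1.13) in the other neurons pooled, where 3 of 4 single clusters were below 1 (median 0.592). *Slc17a7* had 6 and 44 UMIs (0.189, 0.0659 to 0.446), against 1.14 (1.07 to 1.22), although 3 of 9 other neuron clusters were at a ratio of at most 0.5 as well. In control *Slc17a7* was spread over 38 nuclei, of which 27 also had *Slc17a6*. *Dab2ip*, a regulator of Ras, had 14 and 87 UMIs (0.223, 0.117 to 0.395), against 0.826 (0.759 to 0.898), but its ratio in Glut_19 was 0.605 with only nuclei without an *Xist* UMI. *Etv1*, an ETS factor gene that is strong in cerebellar granule cells, had 26 and 159 UMIs (0.227, 0.144 to 0.345), against 0.378 (0.356 to 0.402), with 8 of 9 other neuron clusters below 1. *9330185C12Rik* and *Lncppara* had ratios of 0.204 and 0.245, against 0.532 and 0.603. No difference between these ratios was tested. The alternatives moved several of the Glut_19 ratios. Without subgroup 3, *Nek7* was at 0.0528, *Slc17a7* at 0.0924 and *Dab2ip* at 0.162. With only nuclei without an *Xist* UMI, *Nek7* was at 0.334 and *Slc17a7* at 0.389. After thinning, *Dab2ip* was at 0.0630, *Lncppara* at 0.0840 and *9330185C12Rik* at 0.432, values that rest on few UMIs.

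**Figure D3:**
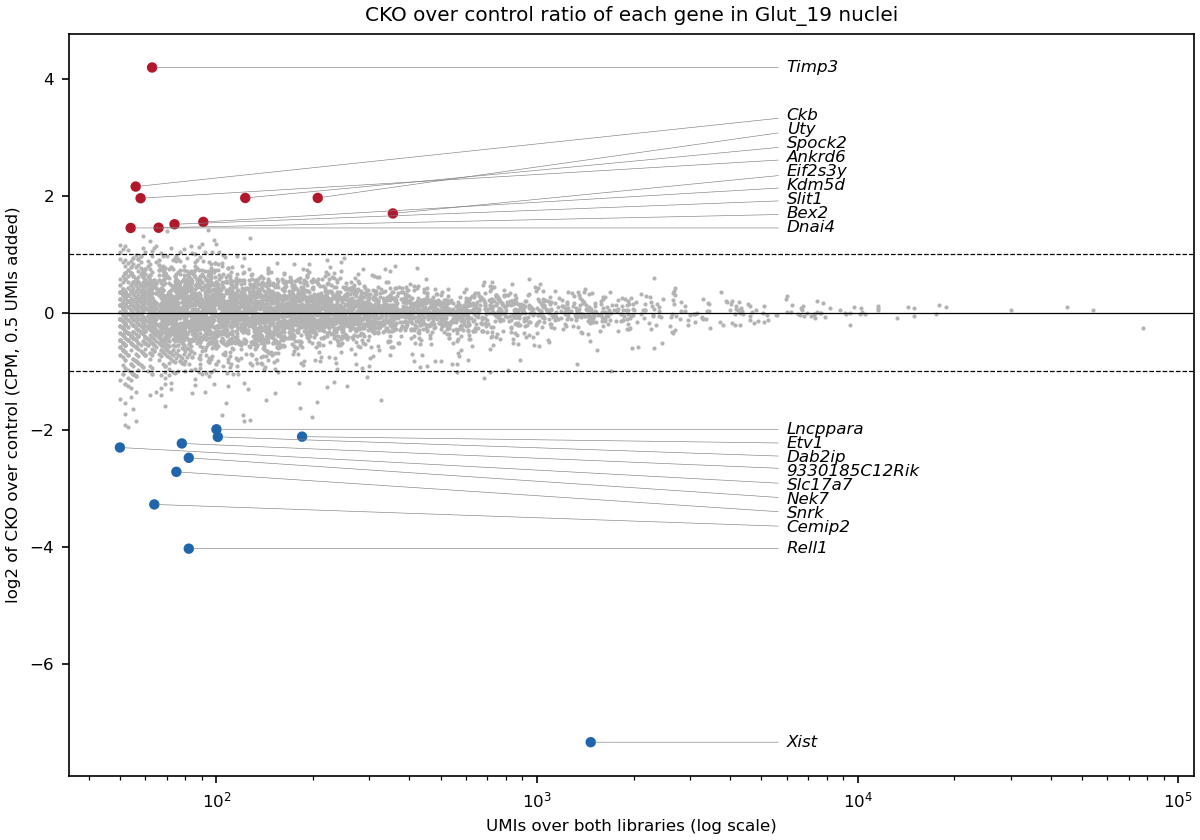
Ratio of CKO to control CPM in Glut_19 nuclei (log2, 0.5 UMIs added, vertical axis) against UMIs over both libraries (log axis) for 5425 genes (gray points). Dashed lines mark a ratio of 2 either way; the 10 largest (red) and 10 smallest (blue) ratios are named, and *Xist* and *Timp3* lie farthest from 0.

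Few genes of the families were past a ratio of 2. Of 354 genes in 17 families, 187 reached 50 UMIs; 5 of these (2.67%) were past a ratio of 2 in CKO and 3 (1.60%) in control, of which 3 and 1 were sex-linked, beside 0.737% and 1.73% of all genes. None of 17 ionotropic glutamate receptor genes was past the limit, with ratios from 0.694 (*Grin2c*) to 1.74 (*Grik3*) and a median log2 ratio of 0.18 against 0.01 over all genes. The 6 metabotropic receptor genes lay between 0.768 and 1.04. Channels for sodium (8 genes, 0.888 to 1.61) and calcium (11 genes, 0.814 to 1.97) were likewise within the limit.

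Single members of other families were past it. *Gabrd*, the delta subunit of extrasynaptic GABA receptors, had 20 and 66 UMIs, a ratio of 0.420 (0.241 to 0.702), and 0.518 (0.451 to 0.592) in the other neurons; the other 13 GABA receptor genes were within the limit. *Kcnip3*, a calcium-binding partner of A-type potassium channels, had 33 and 119 UMIs, a ratio of 0.385 (0.253 to 0.570), as the only member past it among 33 potassium and HCN channel genes. With only nuclei without an *Xist* UMI, *Gabrd* was at 0.577 and *Kcnip3* at 0.519, so neither was past a ratio of 2. With nuclei weighted equally they lay further from 1, at 0.197 and 0.268, and *Gabrd* was at 0.189 after thinning. The thinned value rests on few UMIs. *Htr1f*, a serotonin receptor gene, had 62 and 36 UMIs in 28 and 17 nuclei, a ratio of 2.39 (1.56 to 3.71), as the only such member among 7 genes of amine, acetylcholine and cannabinoid receptors. The *Htr1f* ratio depended on which nuclei were used: it was 1.10 with nuclei weighted equally and 3.74 without subgroup 3. *Slit1* was the only such member of 25 axon guidance genes.

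All 19 cadherin genes (0.765 to 1.49) and all 25 synaptic adhesion genes (0.809 to 1.65) that reached 50 UMIs were within the limit, and *Ntng1* itself was at 1.01 (0.970 to 1.05). The TGF-beta and BMP pathway had 11 of 35 genes at that depth, with ratios from 0.608 (*Acvr2a*) to 1.56 (*Acvr1b*), both activin receptor genes, and a median log2 ratio of -0.25. Of immediate early genes 3 of 19 reached it, from 0.534 (*Nr4a1*) to 1.56 (*Bdnf*), of hypoxia and glycolysis genes 3 of 18, with *Vegfa* at 0.956, and of heat shock and unfolded protein response genes only *Hsph1*, at 1.89. No neuropeptide gene of 23 (31 and 48 UMIs in all) and no interferon or MHC class I gene of 20 (18 and 46 UMIs) reached it, so no ratio was taken for these.

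Limits of this comparison lie in its depth and its nuclei. The numbers of genes past a ratio of 2 were 114 and 236 when each nucleus weighed equally, and 181 CKO-higher and 18 control-higher of 3614 genes when only nuclei without an *Xist* UMI were used, which left 334 CKO and 64 control nuclei; of these genes only 16 and 6 were among the 40 and 94 above. After thinning to 1000 UMIs they were 16 and 21 of 1524 genes, of which 1 and 4 were among those above. Without subgroup 3 they were 44 and 100, of which 22 and 47 were among the 40 and 94 genes above.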

How the data were processed

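The authors ran PIPseeker with a GRCm39 reference, as the study's methods say (the labels name mm10), and deposited whole-number UMI counts. They used CellBender against empty droplets and background and SOLO against doublets, followed by removal of mixed nuclei by hand. No further doublet caller was run. Cell types are the authors' labels; their normalized values were not used. Members and gene lists were chosen with earlier results of these data known. UMIs were summed over the Glut_19 nuclei of each library and divided by their total. Named genes were raised markers, transmitter genes, the 15 leading genes, the 10 largest and 5 smallest folds against each of the 2 most similar clusters, the 10 largest and 10 smallest ratios among genes with at least 50 UMIs, family genes past a ratio of 2 (up to 4 a family), *Tgfbr1*, *Tgfbr2* and sex-linked genes. Genes named for single subgroups, *Syn3*, the members that bound a family's range and those given as examples of a list were chosen after their values were seen. Subgroups used 1000 variable genes, 15 components, 15 neighbors and resolution 0.5, with log counts scaled to 10000. Gene positions come from GENCODE M39 (GRCm39), in which 165 of 169 named genes were found. Software was scanpy 1.11.5 with leidenalg 0.10.2 and pandas 2.3.3, scipy 1.17.1 and numpy 2.4.6 under Python 3.11.15, matplotlib 3.10.9, and R 4.3.3, with edgeR 4.0.16 and DESeq2 1.42.0 used for alternative scaling only. The ratios, intervals and thinning were tested on simulated data. Alternatives covered denominators, scaling, the UMI minimum, weighting, depth, vascular markers, sex-linked transcripts and subgroup 3.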

Additional observations from a re-analysis of the deposited data

How the results depend on the processing

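No paired analysis was possible because each genotype has 1 library. The share of Glut_19 was 4.02% in CKO and 2.65% in control among nuclei labelled as neurons, 2.90% and 1.61% without ECs, pericytes and vascular smooth muscle cells, 2.94% and 1.86% among nuclei with at least 1000 UMIs, and 2.00% and 1.04% without subgroup 3; the ratio of shares stayed between 1.52 and 1.92. The numbers of genes higher in CKO and in control, 40 and 94, became 1492 and 1125 with at least 1 UMI in each library in place of the minimum of 50, 7 and 31 with a minimum of 100 UMIs, 114 and 236 with nuclei weighted equally, 6 and 23 at a ratio of 3, 181 and 18 without nuclei with an *Xist* UMI, and 16 and 21 with each nucleus thinned to 1000 UMIs. The numbers of genes at or past the minimum were 12925, 3507 and 1524 under the first, second and last of these. TMM and DESeq2 scaling each gave 32 and 108, moving the share of CKO-higher genes among those past the ratio from 29.9% to 22.9%, against 57.0% with at least 1 UMI, 18.4% with 100 UMIs, 91.0% without *Xist* nuclei and 43.2% after thinning. No scaling moved the median log2 ratio of all genes by more than 0.06. Named genes were followed under the alternatives that can move single genes (without scaling and the UMI minimum). Of 150 values of 27 named genes, 123 lay within the interval of the value in the report. Another 27 lay outside it and 0 changed side. Values without a control UMI have no finite ratio and were left out of this count. Among them were *Ckb*, *Spock2*, *Timp3* and *Tgfbr1* with only nuclei without an *Xist* UMI. The thalamic list kept its 5 raised markers under every alternative, and the second list had 3, or 2 with clusters weighted equally. Of the 15 leading genes only 4 were shared, and *Lef1* led, with folds over the other neurons; 13 were shared with clusters weighted equally, 13 with at least 1000 UMIs and 14 without subgroup 3. Glut_1 and Glut_14 stayed the most similar clusters by Spearman correlation. Resolution 0.25 gave 4 subgroups and resolution 1 gave 11. Family genes past a ratio of 2, 5 higher in CKO and 3 in control, became 3 and 0 without *Xist* nuclei and 11 and 8 with nuclei weighted equally. They became 23 and 17 with at least 1 UMI in each library, and 1 and 2 after thinning. The alternatives without subgroup 3, without *Xist* nuclei and with thinned ratios were chosen after seeing the data. The cause of these shifts was not tested, beyond the fewer UMIs and nuclei that stricter settings leave.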
